A study of Homo sapiens with 6 samples.

Results

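The genes described here encode solute carriers for ions, metals and organic solutes: the families SLC4, SLC5, SLC8, SLC9, SLC12, SLC20, SLC22, SLC26, SLC30, SLC34, SLC39, SLC40, SLC41, SLC47 and SLC51 and the organic anion transporters SLCO. They were chosen by gene symbol alone, and 126 of the 22496 symbols in the deposited lists matched. Of these, 111 are carriers by symbol and annotation, 8 are antisense symbols, 4 are annotated as pseudogenes (SLC22A20P, SLC26A10, SLC9A7P1 and SLCO1B7), 2 are the scaffold proteins SLC9A3R1 and SLC9A3R2, and 1 is SLC4A1AP, a nuclear protein named for its binding to a bicarbonate exchanger. The RNA came from LoVo, an established cell line of a human colon adenocarcinoma. There were 3 libraries with the non-target genotype, the control, and 3 with SHARPIN knockout, with no treatment or time named for either. The study asks which transcripts change with the loss of SHARPIN, part of the complex that assembles linear ubiquitin chains. The labels do not say whether the knockout line is 1 clone or a pool, nor whether each replicate is a culture of its own. The p-values therefore rest on spread among libraries that could be technical.

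Solute carriers move small charged or polar molecules across membranes, most of them by using the sodium gradient kept by the sodium pump, a proton gradient or the exchange of one solute for another. In the intestinal epithelium they absorb salt, bicarbonate, sugars, phosphate, zinc, iron and bile acids, and set cell volume and cytosolic pH. Iron leaves cells through a single known exporter, ferroportin (SLC40A1), while zinc enters the cytosol through SLC39 proteins and leaves it through SLC30 proteins.

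SHARPIN itself was measured at 11.9, 13.9 and 12.9 FPKM (fragments per unit of transcript length and of mapped fragments) in the non-target libraries 1, 2 and 3. In the libraries labelled knockout it was 7.55, 11.9 and 18.0 FPKM, so the groups overlapped (log2 fold change -0.12 ± 0.26, SE; limma, adjusted p = 0.827). The transcript level does not check the labels, since an edit can disrupt a protein and leave its RNA in place. The libraries listed 19068 to 20158 symbols, and their depth, estimated from the smallest steps between values, was 21100000 to 22500000 fragments. Of 12 markers of intestinal epithelium all reached 1 FPKM in at least 1 library. Their summed level was 3927 to 5097 FPKM in non-target and 4220 to 8793 in knockout libraries, most of it from KRT8 and KRT18, whose groups overlapped. The sum hides the other markers: 6 of the 12 were lower in every knockout library than in any non-target library, 1 (KRT20) was higher and 5 overlapped. Mean levels in non-target and knockout were 57.3 and 5.78 FPKM for CDH17, 46.7 and 1.48 for GPA33, 47.7 and 13.4 for CEACAM5, 50.7 and 14.4 for LGR5, 2.39 and 0.510 for VIL1, and 1.37 and 0.0863 for CDX1. Of 8 fibroblast markers, 4 reached 1 FPKM in some library. Their sum was 7.78 to 20.2 FPKM in non-target and 0.234 to 0.812 in knockout libraries; COL1A1 and COL1A2 stood at 6.6 and 6.12 FPKM in non-target replicate 1 and at or below 0.290 in all others, while LUM was at 5.03 to 7.52 in all 3 non-target libraries. Of 7 immune markers only CD68 reached 1 FPKM, with sums of 19.1 to 25.1 and 29.7 to 35.1 FPKM, and CD3E and MS4A1 were at 0 in every library. None of 4 endothelial markers reached 1 FPKM (sums of 0.556 to 0.626 and 0.0380 to 0.0620), and KDR was at 0 throughout. The part of these markers in the results was not tested.

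The letters in front of some of the genes are shown first. Not all genes that passed are among them: SLCO3A1, which fell most, is left out. SLC30A1 is shown although it did not pass. Each run holds the 250 bases before the RefSeq start of the gene (GRCh38.p14), read 5′ to 3′ along the gene. They belong to SLC40A1 (chr2:189580787-189581036 on the minus strand) and SLC9A2 (chr2:102619303-102619552 on the plus strand), which fell, to SLC5A3 (chr21:34073328-34073577 on the plus strand) and SLC4A3 (chr2:219630807-219631056 on the plus strand), which rose, and to SLC30A1 (chr1:211579162-211579411 on the minus strand), the zinc exporter known as a target of the zinc sensor MTF1. Capitals mark matches, on either strand, to the core of the metal response element that MTF1 binds (TGCACNC or TGCGCNC).
SLC40A1: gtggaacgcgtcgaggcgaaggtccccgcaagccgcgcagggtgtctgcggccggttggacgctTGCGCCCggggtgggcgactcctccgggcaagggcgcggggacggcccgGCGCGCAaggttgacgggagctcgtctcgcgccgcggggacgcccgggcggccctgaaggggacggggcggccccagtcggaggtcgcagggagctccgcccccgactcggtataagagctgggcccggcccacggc
SLC9A2: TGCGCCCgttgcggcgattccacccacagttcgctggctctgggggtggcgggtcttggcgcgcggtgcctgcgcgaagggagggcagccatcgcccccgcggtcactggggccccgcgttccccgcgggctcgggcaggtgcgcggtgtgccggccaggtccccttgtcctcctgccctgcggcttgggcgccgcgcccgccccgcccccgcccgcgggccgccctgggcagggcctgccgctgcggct
SLC5A3: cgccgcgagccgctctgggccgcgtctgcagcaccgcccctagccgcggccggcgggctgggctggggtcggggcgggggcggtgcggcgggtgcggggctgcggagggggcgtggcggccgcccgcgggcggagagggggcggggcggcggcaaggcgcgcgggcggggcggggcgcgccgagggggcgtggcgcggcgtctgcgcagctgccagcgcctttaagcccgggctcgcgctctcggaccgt
SLC4A3: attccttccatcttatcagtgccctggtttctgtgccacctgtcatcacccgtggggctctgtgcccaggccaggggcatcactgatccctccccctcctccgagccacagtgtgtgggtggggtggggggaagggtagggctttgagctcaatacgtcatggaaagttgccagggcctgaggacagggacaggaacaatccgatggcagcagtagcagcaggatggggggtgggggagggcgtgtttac
SLC30A1: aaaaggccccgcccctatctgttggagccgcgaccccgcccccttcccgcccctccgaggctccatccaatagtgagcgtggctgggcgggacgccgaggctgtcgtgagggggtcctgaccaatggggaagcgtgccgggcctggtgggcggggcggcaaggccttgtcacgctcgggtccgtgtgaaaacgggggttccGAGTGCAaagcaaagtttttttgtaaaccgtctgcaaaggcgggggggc

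These windows differed in composition. SLC5A3 was the richest in G and C, at 84.8% with 46 CG dinucleotides, followed by SLC9A2 at 79.6% with 34 and SLC40A1 at 77.2% with 38. SLC30A1 stood at 66.4% with 22. SLC4A3, at 60.8%, had 5 CG dinucleotides. The metal response core was found 2 times in SLC40A1, 1 time each in SLC9A2 and SLC30A1 and 0 times in SLC5A3 and SLC4A3. In SLCO3A1, which is not printed, it was found 0 times before 1 RefSeq start and 1 time before another. Matches were not tested against the direction of change. Over all 35116 RefSeq windows of the same length, 24.8% held the metal response core. Among 133 windows of the 95 transporter genes found in the table, the share was 31.6%. These shares were not matched on G and C content, and a match is a description of letters and not a binding site.

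Of the 126 symbols, 65 reached 1 FPKM in at least 3 of the 6 libraries and were tested with limma over all 13092 such genes. Of the 65, 6 rose in the knockout libraries and 3 fell, and 56 did not pass the threshold (adjusted p below 0.05). The 6 make 9.23% of those tested, where 6.26% of all tested genes rose, and the 3 make 4.62%, where 5.93% of all tested genes fell. The shares lie near those of all genes and are no result about transporters. The median log2 fold change was 0.02 over the 65, against 0.02 over all tested genes. The genes that fell were SLCO3A1, SLC40A1 and SLC9A2, and those that rose were SLC5A3, SLCO2A1, SLC4A3, SLC12A4, SLC30A3 and SLC41A1. All 3 that fell were at or above 1 FPKM only in the non-target libraries, so they entered the test through the group in which they were high. Together the transporter genes made 0.138% to 0.184% of the summed FPKM of a library. The replicate numbers were taken to pair the libraries, which the values bear out for replicate 1 only. With the replicate as a block 10 rose and 5 fell. In that fit 13.5% of all tested genes rose and 11.8% fell, 25.3% in all, and it rests for most genes on a spread shared across genes. With no filter, 2 of the 126 rose and 12 fell, where 3.14% and 4.74% of all genes did. With a block and each gene's own spread, limma passed 0 of the 65 after adjustment, and 8 higher and 5 lower at an unadjusted p below 0.05. That fit also passed 0 of all 13092 genes after adjustment, so its 0 is no result about transporters. Values for each group of carriers follow in the order of their roles. The counts by role stand beside the 6.26% of all tested genes that rose and the 5.93% that fell. Each role holds few calls, so its counts are no result about the role.

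**Figure D1:**
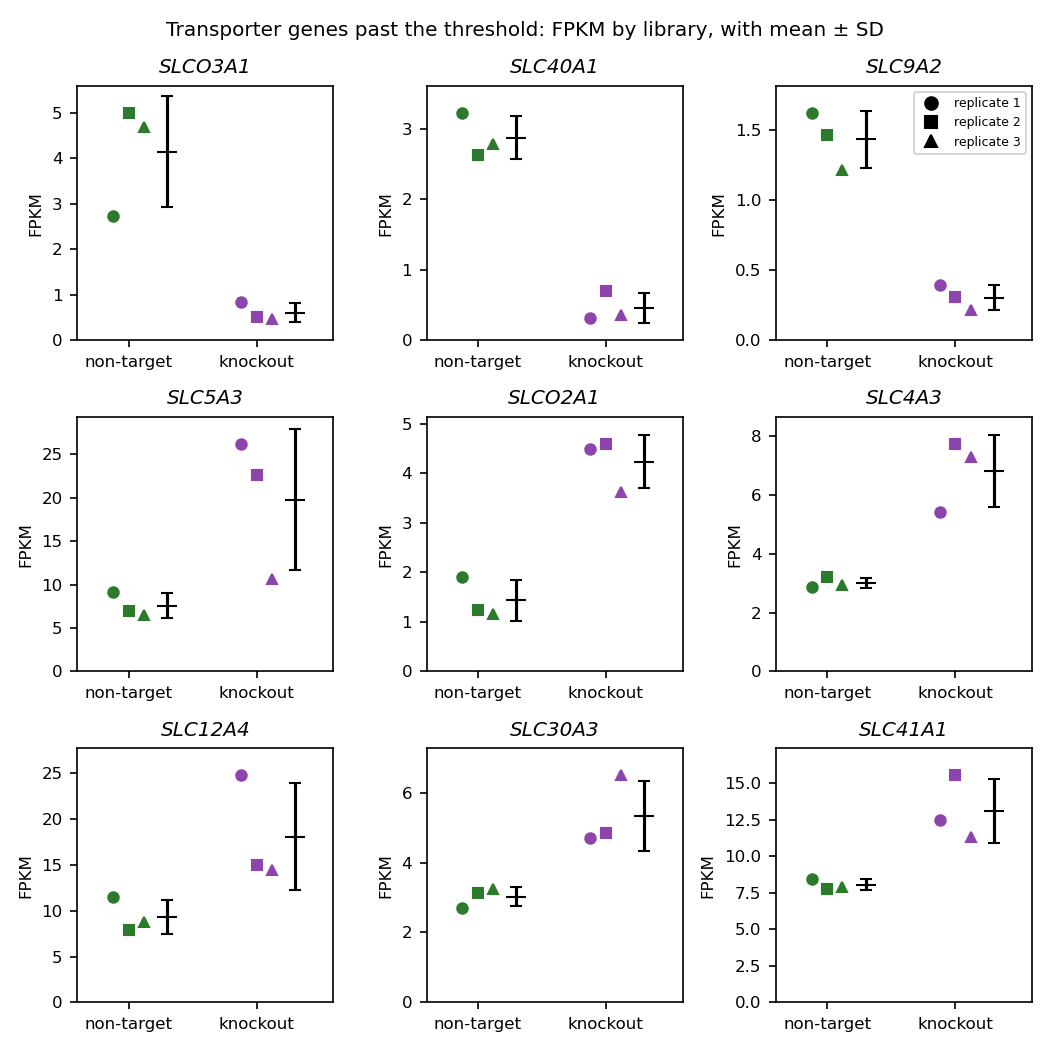
Level of the 9 genes that passed the threshold, in FPKM on linear axes from 0. Each point is 1 library, with the marker giving the replicate number, green for non-target and purple for knockout, and the bar gives the mean ± SD of 3 libraries. In all 9 genes the groups do not overlap.

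**Figure D2:**
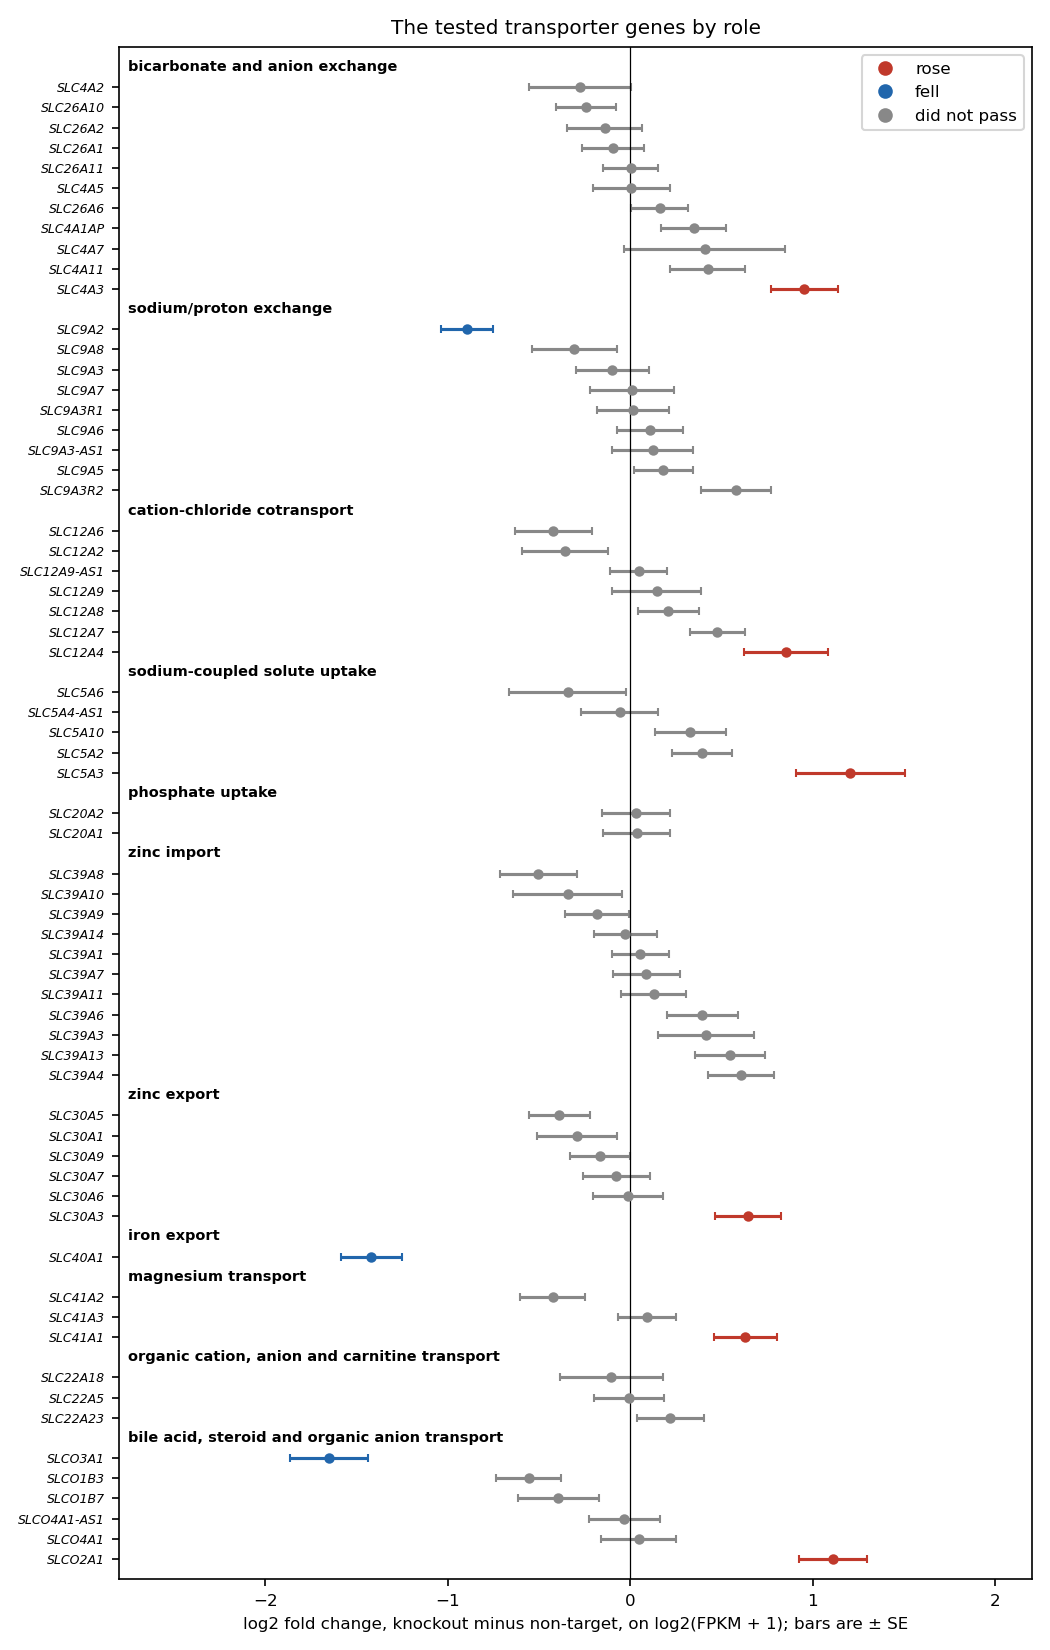
Log2 fold change of the tested transporter genes, all but 1 of the 65, knockout minus non-target, on log2(FPKM + 1), grouped by role, with bars of ± SE. Genes that rose are red, genes that fell blue and the others grey; most lie within 0.5 of 0, as 51 of the 65 do.

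Among bicarbonate and anion exchangers (SLC4 and SLC26, with SLC4A1AP and the pseudogene SLC26A10), 1 of 11 tested members rose. Of the others 0 fell and 10 did not pass, and the median log2 fold change of the 11 was 0.01. SLC4A3, a chloride/bicarbonate exchanger that lowers cytosolic pH by exporting base, had non-target values of 2.87, 3.20 and 2.93 FPKM and knockout values of 5.41, 7.73 and 7.29, given in the order of replicates 1, 2 and 3 here and throughout. Every knockout library lay above every non-target library. SLC4A3 (chromosome 2, 220492116 to 220506702, GRCh37) rose 2.27-fold in mean FPKM, and its log2 fold change was 0.95 ± 0.18 (SE, n = 3 per group) at an adjusted p of 0.00779 in limma, and passed without any single library (adjusted p = 0.00242 to 0.0430). Its relative SLC4A2 was the most abundant of the group, with a non-target mean of 24.6 ± 1.66 FPKM and a knockout mean of 21.4 ± 8.42 (SD, n = 3), and overlapped between groups. The sodium/bicarbonate cotransporter SLC4A7 varied most with the replicate: it stood at 6.46, 2.90 and 3.11 FPKM in non-target and at 12.2, 5.09 and 2.47 in knockout replicates 1, 2 and 3, high in both replicate 1 libraries. SLC26A3, the chloride/bicarbonate exchanger of the mature colon surface, was at or below 0.0110 FPKM in every library. SLC4A4, the electrogenic sodium/bicarbonate cotransporter of the basolateral membrane, missed the filter at 0.570, 0.279 and 0.282 FPKM in non-target and 0.118, 0.08 and 0.0460 in knockout libraries. SLC4A8 also missed it, at 0.465, 0.189 and 0.369 against 1.08, 0.522 and 0.327 FPKM, with overlap.

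Of 10 tested members of the sodium/proton exchanger group, 1 fell, 0 rose and 9 did not pass. The group includes SLC9A3-AS1, SLC9A3R1 and SLC9A3R2, which are not carriers. SLC9A2, an apical exchanger that takes up sodium in exchange for protons, was at 1.62, 1.46 and 1.21 FPKM in non-target and at 0.394, 0.306 and 0.215 in knockout replicates 1, 2 and 3. The groups did not overlap, and all knockout values lay below 1 FPKM. SLC9A2 (chromosome 2, 103236012 to 103327814) was 4.69-fold lower in mean FPKM, and its log2 change was -0.90 ± 0.14 (SE; adjusted p = 0.00275 in limma). It passed without any single library (0.00476 to 0.0201), but the filter was not redone, and SLC9A2 had entered only through its non-target values. The other apical exchanger of intestine, SLC9A3, was more abundant and overlapped between groups, with means of 11.6 ± 1.31 FPKM for non-target and 11 ± 2.59 for knockout (SD, n = 3; adjusted p = 0.811). The antisense symbol SLC9A3-AS1 was listed at 32.4 ± 8.33 and 35.2 ± 6.92 FPKM, above SLC9A3 in every library. Their exons overlap on opposite strands, and those of SLC9A3 also meet PP7080 on the same strand; the library kit marks strand, but no source states whether counting used it, so their reads may not be told apart. SLC9A3R1 (NHERF1), a PDZ scaffold that binds SLC9A3 and CFTR, was at 28.5 ± 2.93 and 29.2 ± 6.89 FPKM (adjusted p = 0.970). Its relative SLC9A3R2 (NHERF2) was at 13.2, 11.8 and 11.9 FPKM in non-target and 17.9, 15.2 and 24.4 in knockout libraries, without overlap. SLC9A3R2 did not pass without a block (log2 fold change 0.58 ± 0.19, adjusted p = 0.0881) and passed with it (adjusted p = 0.00586).

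Cation-chloride cotransporters (SLC12) carry chloride with sodium or potassium and regulate cell volume. Of 7 tested, 1 rose, 0 fell and 6 did not pass, with a median log2 fold change of 0.14. These counts include the antisense symbol SLC12A9-AS1. SLC12A4 (KCC1), a potassium/chloride exporter, was at 11.4, 7.87 and 8.77 FPKM in non-target and at 24.7, 14.9 and 14.5 in knockout replicates 1, 2 and 3. The groups did not overlap, and replicate 1 was the highest in both. SLC12A4 (chromosome 16, 67977377 to 68003504) rose by a log2 change of 0.85 ± 0.23 (SE; adjusted p = 0.0424 in limma). The call was lost when any 1 of the 6 libraries was left out (adjusted p = 0.0508 to 0.150). Its annotated exons overlap those of LCAT on the same strand, and LCAT was at 2.85, 2.42 and 3 against 5.15, 4.62 and 5.58 FPKM, so fragments may be shared. SLC12A7 (KCC4), another potassium/chloride exporter, was at 13.8, 15.2 and 15.7 FPKM in non-target and at 20.4, 22.2 and 20.7 in knockout libraries, without overlap (log2 fold change 0.48 ± 0.15, adjusted p = 0.0738, and adjusted p = 0.0278 with a replicate block). SLC12A2 (NKCC1), which loads chloride into secretory epithelial cells, was at 23.1 ± 5.76 and 17.7 ± 4.24 FPKM (SD, n = 3) and overlapped. SLC12A1, its kidney relative, was listed above 0 in 1 library only, at 0.003 FPKM.

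Of the sodium-coupled solute carriers (SLC5), 1 of 5 tested members rose, 0 fell and 4 did not pass. The antisense symbol SLC5A4-AS1 is among the 4. SLC5A3, which takes up the osmolyte myo-inositol with sodium, was at 9.20, 6.92 and 6.52 FPKM in non-target and at 26.2, 22.6 and 10.6 in knockout replicates 1, 2 and 3. Knockout replicate 3 lay closest to the non-target range, but the groups did not overlap. SLC5A3 (chromosome 21, 35445878 to 35478559) rose 2.62-fold in mean FPKM, and its log2 change was 1.21 ± 0.30 (SE; adjusted p = 0.0283 in limma). The call was lost without each single library except knockout replicate 3 (adjusted p up to 0.124). SLC5A3 shares exons with MRPS6, a subunit of the mitochondrial ribosome on the same strand, and the latter was at 32.0, 32.7 and 32.3 FPKM in non-target and at 67.2, 58.9 and 78.9 in knockout libraries (log2 fold change 1.05, limma, adjusted p = 0.00273). No source states how fragments of the pair were divided, so the rise of SLC5A3 cannot be told apart from that of MRPS6. SLC5A6, which carries biotin and pantothenate, overlapped between groups, at 18.2 ± 4.80 and 14.7 ± 6.03 FPKM (SD, n = 3). SLC5A2, a glucose carrier best known from kidney, was at 6.61, 5.23 and 6.03 FPKM in non-target and 8.58, 7.54 and 8.21 in knockout libraries, without overlap, but did not pass (adjusted p = 0.172). The intestinal glucose carrier SLC5A1 missed the filter, at 0.242, 0.137 and 0.209 against 0.0480, 0.0210 and 0 FPKM.

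Of the 2 tested phosphate carriers, 0 passed in limma, and 0 had an unadjusted p below 0.05. SLC20A1 had means of 24.4 ± 4.98 FPKM for non-target and 24.7 ± 1.19 for knockout (SD, n = 3; log2 fold change 0.03 ± 0.18, SE), and SLC20A2 at 6.47 ± 0.326 and 6.71 ± 1.43 (0.03 ± 0.19). With TPM scaling the log2 fold change of SLC20A1 was -0.053. The sodium/calcium exchangers SLC8A1 and SLC8A2 were both under the filter. SLC8A1 was at 0.183, 0.112 and 0.106 FPKM in non-target and at 0.0220, 0.008 and 0 in knockout libraries.

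Zinc importers (SLC39) were the most abundant group, with a summed level of 174, 181 and 183 FPKM across the non-target libraries and 191, 211 and 203 across the knockout libraries. Of 11 tested, 0 passed in limma. With a replicate block 2 rose and 1 fell, where 13.5% of all tested genes rose and 11.8% fell. Counts this small are no result about zinc importers. SLC39A14, which imports zinc, manganese and iron, was the most abundant of all 126 symbols, at 42.5, 45.6 and 47.9 FPKM in non-target and at 43.0, 53.4 and 38.1 in knockout libraries. These ranges overlapped (log2 fold change -0.03 ± 0.17, SE). SLC39A1, a plasma membrane zinc importer, was at 36.6 ± 1.18 and 38.1 ± 3.82 FPKM (SD, n = 3), and SLC39A6 at 21.7 ± 1.11 and 29.4 ± 7.59 (adjusted p = 0.245). SLC39A4, the apical importer of dietary zinc, was at 19.9, 17.0 and 16.4 FPKM in non-target and 30.8, 22.2 and 30.2 in knockout libraries. Its groups did not overlap, with a log2 fold change of 0.60 ± 0.18 (adjusted p = 0.0616, and adjusted p = 0.00302 with a replicate block). SLC39A13, a zinc carrier of the secretory pathway, was at 6.01, 6.20 and 5.85 against 7.22, 9.40 and 11.6 FPKM (adjusted p = 0.102, and 0.0195 with the block). SLC39A8, a close relative of SLC39A14 that carries manganese and zinc, was lower in every knockout library, at 8.37, 10.5 and 11 against 4.90, 7.58 and 8.02 FPKM (log2 fold change -0.50 ± 0.21, adjusted p = 0.165, and 0.0328 with the block). SLC39A5, a basolateral importer, missed the filter at 1.56, 0.929 and 0.853 FPKM in non-target and 0.354, 0.128 and 0.178 in knockout libraries, a ratio of 5.06.

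Among zinc exporters (SLC30), 1 of 6 tested rose, 0 fell and 5 did not pass. SLC30A3, which loads zinc into vesicles, was at 2.71, 3.14 and 3.24 FPKM in non-target and at 4.70, 4.83 and 6.50 in knockout replicates 1, 2 and 3. The groups did not overlap. SLC30A3 (chromosome 2, 27476552 to 27498685) rose by a log2 change of 0.65 ± 0.18 (SE; adjusted p = 0.0473 in limma), and the call was lost without each single library except knockout replicate 1 (adjusted p up to 0.167). SLC30A1, whose upstream letters are printed above, exports zinc at the cell surface. It was at 10.9, 16.1 and 16.7 FPKM in non-target and 10.2, 14.9 and 10.1 in knockout libraries, overlapped and did not pass (adjusted p = 0.459). SLC30A4 missed the filter at 0.826, 0.625 and 0.918 against 0.691, 1.19 and 0.646 FPKM.

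Metallothioneins bind zinc in the cytosol. Of 8 tested genes of metallothioneins and zinc sensing, 2 rose, 0 fell and 6 did not pass, and with a replicate block 7 rose; the median log2 fold change was 1.08. The shares that rose were 25% and 87.5% of the 8, where 6.26% of all tested genes rose without the block and 13.5% with it. The list was drawn up with earlier results of these data known, so the shares are no test of it. MT1A was at 22.1, 34.6 and 39.6 FPKM in non-target and at 74.5, 71.3 and 101 in knockout libraries, without overlap (log2 fold change 1.35 ± 0.24, SE; limma, adjusted p = 0.00502). MT1F rose from 5.97 ± 0.898 to 14.8 ± 5.12 FPKM (SD, n = 3; adjusted p = 0.0177), which did not pass when non-target replicate 1, knockout replicate 2 or knockout replicate 3 was left out (up to 0.0876). The more abundant MT2A was at 34.8, 118 and 108 FPKM in non-target and 94.4, 165 and 220 in knockout libraries, overlapped and passed only with the block (adjusted p = 0.219 without it and 6.52e-07 with it). In each group MT2A, MT1E, MT1X and MT1G were lowest in replicate 1. MT1 genes are near-identical copies, so reads can be split uncertainly between them. MTF1, the zinc-sensing transcription factor, was at 3.58, 3.94 and 3.89 against 4.23, 4.89 and 2.7 FPKM and did not pass (adjusted p = 0.975).

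**Figure D3:**
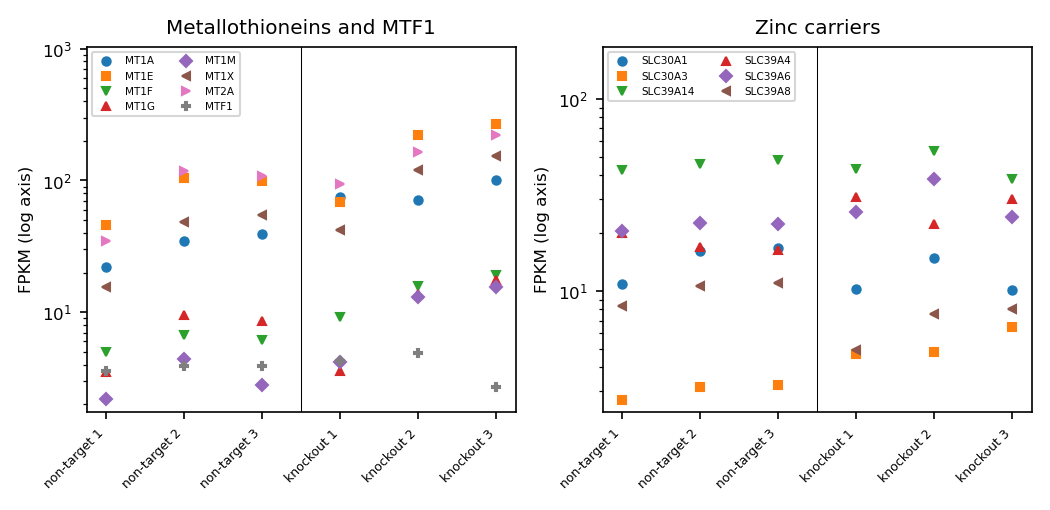
Level of the 7 tested metallothioneins with MTF1 (left) and of 6 zinc carriers (right) in each library, in FPKM on log axes; the vertical line parts non-target from knockout libraries. MT1A, MT1F, SLC30A3, SLC39A4 and SLC39A6 lie above all their non-target values in each knockout library. SLC39A8 lies below all of its own, while SLC39A14 and SLC30A1 overlap between the groups. The 6 carriers are a selection of those tested, and SLC39A1 and SLC39A13 are among those not plotted.

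The iron exporter SLC40A1 (ferroportin) fell. It stood at 3.22, 2.62 and 2.78 FPKM in non-target and at 0.313, 0.699 and 0.357 in knockout replicates 1, 2 and 3, and the highest knockout value was well below the lowest non-target value. SLC40A1 (chromosome 2, 190425316 to 190448484) was 6.30-fold lower in mean FPKM, and its log2 change was -1.42 ± 0.16 (SE; adjusted p = 0.000525 in limma). It passed without any single library (0.000886 to 0.00643), but the filter was not redone, and SLC40A1 had entered only through its non-target values. In bulk RNA, fewer cells that make a transcript and less transcript per cell cannot be told apart. Of 20 tested genes of iron handling, 3 fell, 0 rose and 17 did not pass, and the median log2 fold change was -0.37; with the replicate as a block 8 fell and 2 rose. The share that fell was 15%, where 5.93% of all tested genes fell, and with the block 40% fell and 10% rose, where 11.8% and 13.5% of all did. This list too was drawn up with earlier results of these data known, and its shares are no test. Of the 12 intestinal markers, 6 were lower in the same libraries, 1 (KRT20) was higher and 5 overlapped. The part of these markers in the values was not tested. HEPH, the ferroxidase that works with ferroportin at the basolateral membrane of enterocytes, was at 17.1, 10.9 and 11.1 FPKM in non-target and at 3.79, 1.32 and 1.44 in knockout libraries (log2 fold change -2.20 ± 0.30; limma, adjusted p = 0.00114). HFE, which takes part in iron sensing, fell from 7.52 ± 0.262 to 3.13 ± 0.224 FPKM (SD, n = 3; adjusted p = 0.00225). IREB2, an iron-responsive RNA-binding protein, fell from 14.9 ± 0.482 to 8.28 ± 2.22 FPKM (adjusted p = 0.0299), a call lost without any 1 of the non-target libraries (up to 0.104). The transferrin receptor TFRC overlapped between groups, at 19.2, 33.5 and 31.4 against 21.7, 28.6 and 19.9 FPKM (adjusted p = 0.606).

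Of 3 magnesium transporters, all tested, 1 rose. SLC41A1, a sodium/magnesium exchanger of the plasma membrane, was at 8.47, 7.76 and 7.91 FPKM in non-target and at 12.5, 15.5 and 11.3 in knockout libraries, without overlap. SLC41A1 (chromosome 1, 205758222 to 205782876) rose by a log2 change of 0.63 ± 0.17 (SE; adjusted p = 0.0405 in limma), and the call was lost without any 1 of the non-target libraries or knockout replicate 2 (up to 0.185). SLC41A2 was lower in every knockout library, at 2.16, 1.90 and 1.71 against 0.926, 1.68 and 0.985 FPKM, but did not pass (adjusted p = 0.169), and SLC41A3 overlapped at 16.6 ± 1.5 and 17.7 ± 1.84 FPKM (SD, n = 3). Of 14 tested genes of magnesium and calcium transport outside these families, 4 fell (28.6%, where 5.93% of all tested genes did), 0 rose and 10 did not pass. That share is no test, since the list was drawn up with earlier results of these data known. ATP2A3, a calcium pump of the endoplasmic reticulum, fell from 1.94 ± 0.0860 to 0.126 ± 0.0252 FPKM (SD, n = 3) and entered the test only through the non-target libraries. The magnesium channel TRPM7 fell from 8.60 ± 0.855 to 4.38 ± 1.24, and SLC24A1, a potassium-dependent sodium/calcium exchanger, from 4.27 ± 0.319 to 1.90 ± 0.586. TRPM7 did not pass when any 1 of the non-target libraries or knockout replicate 3 was left out, nor SLC24A1 without non-target replicate 3 or knockout replicate 3 (adjusted p up to 0.0743 and 0.0770). NIPA2, a magnesium carrier, fell from 25.1 ± 1.56 to 14.9 ± 3.15 FPKM (adjusted p = 0.0323), and did not pass without any 1 of the non-target libraries or knockout replicate 2 (up to 0.136).

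Organic cation, anion and carnitine carriers (SLC22 and SLC47) were mostly under the filter, and 0 of 3 tested members passed in limma. SLC22A5, the high-affinity carnitine importer, was the most abundant, at 6.73, 7.93 and 7.34 FPKM in non-target and 5.64, 8.79 and 7.73 in knockout libraries. It overlapped between groups (log2 fold change -0.01 ± 0.19, SE; adjusted p = 0.988). Its neighbour SLC22A4, a carrier of ergothioneine, was at 0.612, 0.470 and 0.527 against 0.574, 1.10 and 0.761 FPKM. The organic cation transporter SLC22A3 (OCT3) was at 0.640, 0.863 and 0.950 FPKM in non-target and at 0.143, 0.0540 and 0.0990 in knockout libraries, without overlap and below the filter.

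The bile acid, steroid and organic anion carriers (SLCO and SLC51) held SLCO3A1 and SLCO2A1, with the lowest and the second highest log2 fold change of the 65 tested genes. Of 6 tested, 1 rose, 1 fell and 4 did not pass. The pseudogene SLCO1B7 and the antisense symbol SLCO4A1-AS1 are among the 4. SLCO3A1, which carries prostaglandins and thyroid hormone, was at 2.74, 4.99 and 4.70 FPKM in non-target and at 0.844, 0.509 and 0.477 in knockout replicates 1, 2 and 3, with no overlap. SLCO3A1 (chromosome 15, 92396938 to 92715665) was 6.79-fold lower in mean FPKM, and its log2 change was -1.65 ± 0.21 (SE; adjusted p = 0.000886 in limma). It passed without any single library (0.000779 to 0.0141), but the filter was not redone, and SLCO3A1 had entered only through its non-target values. SLCO2A1, the prostaglandin uptake carrier, went the other way, from 1.91, 1.24 and 1.16 FPKM to 4.50, 4.59 and 3.62. SLCO2A1 (chromosome 3, 133651545 to 133771028) rose 2.95-fold in mean FPKM, with a log2 fold change of 1.11 ± 0.19 (adjusted p = 0.00376), and passed without any single library (0.00475 to 0.0265). These 2 carriers, both with prostaglandins among their substrates, moved in opposite directions.

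SLCO1B3, best known as a liver uptake carrier for bile acids and drugs, was the second most abundant of the 126 symbols by non-target mean. It was at 51.1, 40.5 and 39.7 FPKM in non-target and at 32.0, 31.3 and 24.9 in knockout libraries, and the groups did not overlap. Its log2 change of -0.56 ± 0.18 (SE) did not pass in limma (adjusted p = 0.0768) and passed with a replicate block (adjusted p = 0.00691). Its paralogs SLCO1B1 and SLCO1B7 were far lower. SLCO1B1 was at 0.555, 0.637 and 0.620 against 0.0970, 0.371 and 0.150 FPKM, and SLCO1B7 at 4.33, 2.54 and 3.34 against 2.32, 3.06 and 1.67, and close copies of this kind can share reads. SLCO4A1 overlapped between groups at 15 ± 3.69 and 15.2 ± 1.73 FPKM (SD, n = 3). Below the filter, SLCO2B1, an intestinal uptake carrier for sulfated steroids and drugs, was at 0.676, 1.24 and 1.24 FPKM in non-target and at 0.0580, 0.107 and 0.0230 in knockout libraries, a ratio of 16.8. SLCO4C1 was at 1.18, 0.796 and 0.726 against 0.263, 0.307 and 0.2 FPKM. Both were lower in every knockout library.

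In total 61 transporter symbols missed the filter, 55 of them below 1 FPKM in every library, and they were not tested. In 21 of them, or 34.4%, every knockout value lay below every non-target value, and in 2, or 3.28%, above; those 2 were SLC5A11 and SLC22A31. Among all 9392 symbols under the filter, the shares were 14.4% and 6.04%, without matching on level. Among the 65 tested symbols, 9 were lower without overlap, or 13.8%, and 15 were higher, or 23.1%, where 15.7% and 16.5% of all tested genes were. In the plot of mean levels 44 of the 61, or 72.1%, lie under the line of equality, as do 58.4% of all 9392 symbols under the filter.

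**Figure D4:**
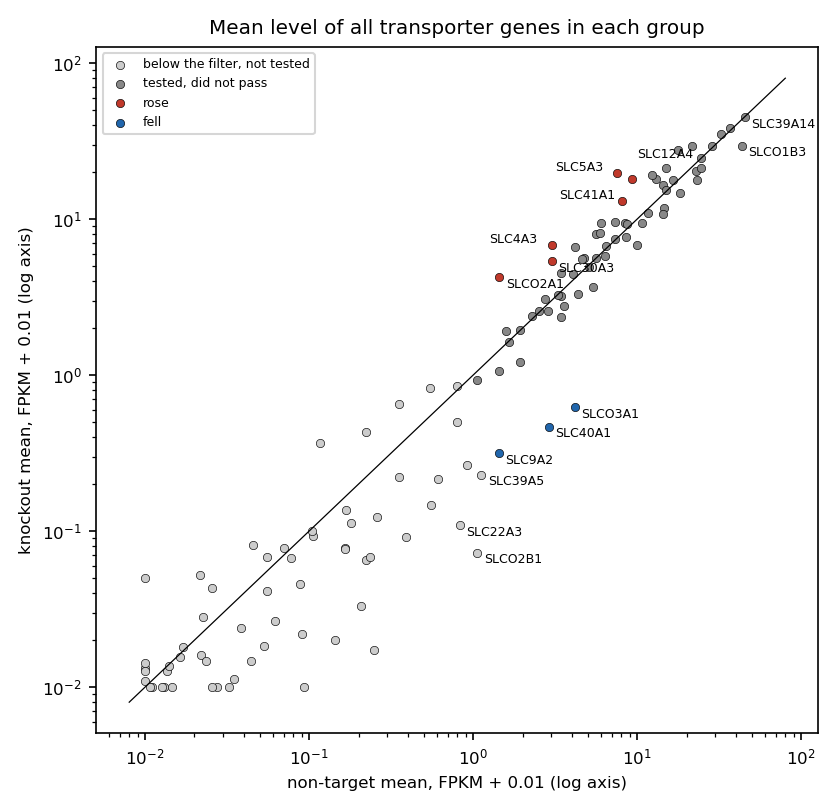
Mean FPKM of each of the 126 transporter symbols in the knockout group against the non-target group, both on log axes after adding 0.01, with the line of equality. Light points missed the filter, dark grey points did not pass, red points rose and blue points fell; SLCO2B1, SLC22A3 and SLC39A5 are low symbols that lie far under the line.

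Genes that work with these carriers were taken from 8 lists. Of 89 tested genes in them, 9 rose, 19 fell and 61 did not pass, and their median change was -0.14 on the log2 scale, against 0.02 over all tested genes. The shares were 10.1% that rose and 21.3% that fell, where 6.26% and 5.93% of all tested genes did. Of these calls 5 (CA13, ABCC2, NR1I2 and ATP2A3, which fell, and KCNMA1, which rose) reached 1 FPKM only in the group where they were high, so they entered the test through that group, and their counts and p-values carry that limit. The lists were drawn up with earlier results of these data known and carry no test of their own. In the sodium pump list 2 of 6 rose and 1 fell. FXYD3, a small regulator of the pump, was at 36.0, 39.3 and 39.6 FPKM in non-target and at 12.1, 6.31 and 8.32 in knockout libraries (log2 fold change -2.03 ± 0.22, SE; limma, adjusted p = 0.000316). Another regulator, FXYD5, rose from 123 ± 9.11 to 214 ± 39.4 FPKM (SD, n = 3; adjusted p = 0.0216). FXYD5 lost the call without any 1 of the non-target libraries (up to 0.124).

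Carbonic anhydrases, which make the bicarbonate and protons that SLC4, SLC9 and SLC26 proteins carry, gave 3 that fell of 4 tested, where 5.93% of all tested genes fell, and 0 that rose. CA13, 1 of the 3, was tested only through its non-target values. The cell surface enzyme CA12 was at 12.6, 11.7 and 11.1 FPKM in non-target and at 5.38, 2.49 and 2.04 in knockout libraries (log2 fold change -1.65 ± 0.26, SE; limma, adjusted p = 0.00301). The cytosolic enzymes CA2 and CA13 fell from 8.78 ± 0.925 to 5 ± 0.616 and from 1.38 ± 0.0965 to 0.600 ± 0.105 FPKM (SD, n = 3). Neither passed when replicate 2 of either group or replicate 3 of non-target was left out, nor CA13 when knockout replicate 3 was (adjusted p up to 0.166 and 0.143). Of 11 tested channels, 3 rose (27.3%), 1 fell (9.09%) and 7 did not pass, where 6.26% of all tested genes rose and 5.93% fell. The carbonic anhydrase and channel lists were drawn up with earlier results of these data known, so their shares are no test. CFTR, the chloride and bicarbonate channel that works beside SLC26 exchangers, was at 21.4, 13.4 and 15.4 FPKM in non-target and at 1.79, 1.23 and 0.793 in knockout libraries (log2 fold change -2.96 ± 0.23, adjusted p = 7.67e-05). The potassium channel subunits KCNE3 and KCNMA1 rose, KCNE3 from 1.13 ± 0.945 to 5.59 ± 0.180 FPKM and KCNMA1 from 0.237 ± 0.194 to 1.28 ± 0.190, the latter tested only through its knockout values. LRRC8A, a subunit of the volume-regulated anion channel, rose from 6.91 ± 0.548 to 12 ± 2.79 FPKM (adjusted p = 0.0403), and passed without knockout replicate 1 only (up to 0.134).

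Among kinases and scaffolds of ion carriers, 2 of 13 tested fell (15.4%, where 5.93% of all tested genes did), 0 rose and 11 did not pass. AHCYL2, which regulates the bicarbonate carrier SLC4A4, was at 49.1, 69.1 and 67.5 FPKM in non-target and at 7.39, 6.44 and 4.35 in knockout libraries (log2 fold change -3.16 ± 0.22, SE; limma, adjusted p = 4.53e-05). The kinase SGK2 fell from 3.12 ± 1.10 to 0.591 ± 0.400 FPKM (SD, n = 3; adjusted p = 0.00448). Of 13 tested genes of bile acid and solute efflux, 2 rose (15.4%), 5 fell (38.5%) and 6 did not pass. Among all tested genes 6.26% rose and 5.93% fell. The kinase and efflux lists were drawn up with earlier results of these data known, so their shares are no test. The transcription factor HNF4A, which controls many liver and gut transporter genes, fell from 22 ± 1.48 to 3.84 ± 0.849 FPKM, and the xenobiotic receptor NR1I2 (PXR) from 4.27 ± 1.03 to 0.336 ± 0.291 (adjusted p = 7.75e-05 and 0.000299). NR1I2 was tested only through its non-target values, and HNF4A passed without any single library. Of the 12 intestinal markers, 6 were lower alongside CFTR and HNF4A, 1 (KRT20) was higher and 5 overlapped. The part of these markers was not tested. The efflux pumps ABCC2 and ABCC3 fell from 2.13 ± 0.474 to 0.348 ± 0.0664 and from 23.7 ± 5.36 to 11.6 ± 1.75 FPKM (adjusted p = 0.000975 and 0.0119), and ABCC3 did not pass without knockout replicate 2 (0.0529). ABCC2 was tested only through its non-target values. The pumps ABCC4 and ABCG2 rose from 6.26 ± 1.46 to 11.9 ± 2.69 and from 18.5 ± 3.80 to 30.8 ± 4.49 FPKM (adjusted p = 0.0385 and 0.0411). Neither passed without replicate 2 of either group, replicate 3 of non-target or replicate 1 of knockout (up to 0.153 and 0.211).

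**Figure D5:**
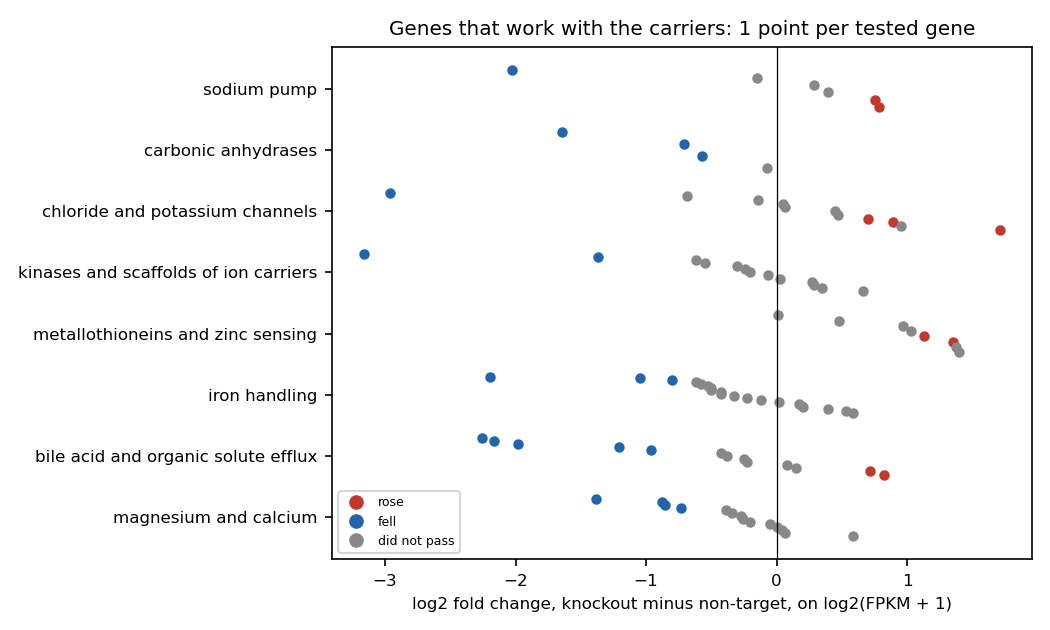
Log2 fold change of the 89 tested genes in 8 lists of partners of the carriers, knockout minus non-target, on log2(FPKM + 1). Each point is 1 gene, red where it rose, blue where it fell and grey where it did not pass; AHCYL2 and CFTR lie farthest to the left and KCNE3 farthest to the right.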

How the data were processed

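Poly-A RNA of LoVo cells was sequenced in 6 libraries. The authors deposited FPKM values, per the labels, as 1 list of gene symbols per library. Per the submitters' processing notes, reads were aligned with TopHat2 2.1.1 to hg19 and FPKM computed with STAR 2.7.10b. Strand use in counting and the handling of shared fragments: not given in the sources used here. A symbol absent from a library's list counted as 0.

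Depth was estimated from low values of genes with 1 annotated transcript; 74 to 103 of 689 to 813 such values per library lay on the best step, so it is an estimate. Whole fragments were not recovered for most genes, and no count test was run. The 13092 genes that reached 1 FPKM in 3 or more libraries entered a two-sided limma 3.58.1 test (R 4.3.3; trend, robust) on log2(FPKM + 1). Adjusted p-values (Benjamini-Hochberg) below 0.05 were called, and this scale understates the change of low genes. In simulated data of 13092 genes with 200 changed, the test recovered 83.0% of those changed 2-fold and 99.8% of those changed 4-fold, and 7.27% of its calls were unchanged genes. The simulated noise was normal and independent between genes and libraries. The real libraries shared deviations, as given below, and gave 1597 calls, so these rates need not hold for them.

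Named genes are the members past the threshold, the 6 most abundant, the most abundant of each role without a call, those under the filter with 1 FPKM in any library, up to 3 called genes per partner list and SHARPIN, plus genes called only with the block; the others named were chosen after their values were seen. The members and lists were chosen with earlier results of these data known. Deviations from the group means correlated at 0.547, 0.309 and 0.331 between same-numbered libraries, so the numbers, which are from the titles, were taken to pair them. Non-target 2 correlated as much with knockout 3 (0.320), and non-target 3 with knockout 2 (0.321). These values set replicate 1 apart but do not pair replicates 2 and 3, and results with the block carry that limit. With the block, 86.4% of genes took their spread wholly from other genes. Coordinates are GENCODE v44 on GRCh37, the files' build, found for all 126 symbols. Promoter sequences are from RefSeq (GRCh38.p14). Alternatives were other pseudocounts, filters, scalings, limma options, the block and leaving out each library. Some genes that enter the counts are not reported here by name.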

Additional observations from a re-analysis of the deposited data

How the results depend on the processing

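Without any single library 2 to 7 transporter genes rose and 3 fell, against 6 and 3; of all genes 411 to 1041 rose and 500 to 929 fell, against 820 and 777, and of partner genes 4 to 11 rose and 13 to 22 fell, against 9 and 19. The low counts of rising transporter genes came without non-target replicates 1, 2 or 3 (2 each) and knockout replicate 2 (3). SLCO3A1, SLC40A1, SLC9A2, SLC4A3 and SLCO2A1 passed in all alternatives that tested them but the block with each gene's own spread. The filter was not redone for the fits without 1 library. SLCO3A1, SLC40A1 and SLC9A2 would miss it without any 1 of the non-target libraries, so their passing there is no independent support. TPM scaling left 2 rising transporter genes and 5 rising partner genes. With no filter 2 transporter genes rose and 12 fell of 126, where 4.74% of all genes fell, and 5 partner genes rose. With a mean of at least 5 FPKM 3 rose and 0 fell of 40 (limma, 3 lower at an unadjusted p below 0.05), and of all genes 519 rose and 346 fell. Array weights gave 18 and 5, with 3202 and 2067 of all genes and 23 and 34 of partner genes. The replicate block gave 10 and 5, with 1767 and 1542 of all genes and 20 rising partner genes. The replicate block with each gene's own spread gave 0 and 0, 0 and 0 of all genes and 0 and 0 of partner genes in limma's linear model; at an unadjusted p below 0.05 these were 8 and 5, 1409 and 1189, and 11 and 20. Each gene's own spread without a block gave 3 rising transporter genes, 286 and 429 of all genes, and 0 and 10 partner genes (10 higher at an unadjusted p below 0.05). Non-target replicates 2 and 3 correlated at 0.9968 over the tested genes, and replicate 1 at 0.9738 and 0.9753 with them. Among the knockout libraries the correlations were 0.9462 to 0.9796. The 2 non-target libraries may thus not count as separate samples, and no source states whether they share a culture. With non-target replicates 2 and 3 as 1 sample, 2 transporter genes, 416 genes in all and 4 partner genes rose. The cause of these shifts was not tested.

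Directions of genes near 0 were not stable, and none of these values passed. With TPM scaling the log2 fold change was -0.033 for SLC39A1, -0.073 for SLC9A3R1 and -0.053 for SLC20A1. Quantile normalization gave -0.070 for SLC39A1, -0.014 for SLC9A3-AS1, -0.10 for SLC9A3R1 and -0.076 for SLC20A1, and median-ratio scaling -0.0088 for SLC9A3R1. Array weights gave 0.12 for SLC39A14, -0.056 for SLC9A3R1, 0.16 for SLC22A5 and -0.086 for SLC20A1, and non-target replicates 2 and 3 as 1 sample 0.019 for SLC22A5. Without single libraries the range was -0.157 to 0.0798 for SLC39A14, -0.0140 to 0.127 for SLC39A1, -0.0024 to 0.318 for SLC9A3-AS1, -0.156 to 0.166 for SLC9A3R1, -0.128 to 0.153 for SLC22A5, -0.132 to 0.154 for SLC20A1 and -0.41 to 0.17 for SHARPIN. Depth per gene is unknown, so no counting interval can be given for the low symbols.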
